A study of Mus musculus with 15 samples.

Results

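The genes described here encode the machinery that copies DNA and divides the cell. They were taken from a list of 45 mouse genes, 25 acting in S phase and 20 in mitosis, and were matched to the array by exact gene name. The match found 44 of the 45 genes and 59 probes, among the 39429 non-control probes of the array. A gene was tested where a probe lay well above background on at least 3 arrays of a group, and 43 of the 21217 genes tested were on the list, 23 of them S-phase and 20 mitotic genes. The S-phase gene Ccne2, which encodes a second E-type cyclin, was not well above background on any ES cell array and on only 2 of 4 EB9 arrays with either control or knockdown, so it has no value below. Orc1, the large subunit of the origin recognition complex, is printed on the array under the older name Orc1l, so the exact name did not find it and its values are given outside the counts.

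RNA levels were read on 1-colour Agilent arrays. The samples were mouse embryonic stem (ES) cells, or embryoid bodies, which the labels call EB9. Embryoid bodies are aggregates in which ES cells leave the pluripotent state and form early lineages. The 4 groups were control ES cells (3 arrays, numbered 2 to 4), ES cells labelled as Cbx7-depleted (4 arrays), control EB9 (4 arrays) and EB9 labelled as Cbx7-depleted (4 arrays), called knockdown below, all titled biological replicates, and 500 ng of total RNA was labelled for each. Cbx7 is a Polycomb chromodomain protein, one of the subunits through which Polycomb repressive complex 1 is placed on chromatin. The labels name 1 knockdown, KD33, so an effect of Cbx7 loss and an effect particular to KD33 cannot be told apart. The age of the embryoid bodies, the ES cell line and the control construct are not given in the sources used here.

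Replication is prepared in G1, when the origin recognition complex, Cdc6 and Cdt1 load the ring-shaped Mcm2 to Mcm7 helicase onto DNA. Cyclin E with Cdk2 then starts synthesis, and the primase-polymerase alpha complex, the sliding clamp Pcna and its loader carry it out. At mitosis cyclin B with Cdk1 drives entry, Plk1 and the Aurora kinases build the spindle, and the checkpoint proteins Bub1, Bub1b and Mad2l1 hold back Cdc20 until the chromosomes are attached. ES cells are known for a short G1 phase and for high, weakly periodic cyclin E, and most lengthen G1 as they differentiate. S-phase genes are classically read through E2F sites, and mitotic genes through CCAAT boxes and the cell cycle homology region (CHR).

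Promoter letters were searched in the RefSeq promoter table (build GRCm38.p6, 250 bases before to 50 after each start), on both strands. E2F was searched as TTTGGCGC, TTTCGCGC, TTTCCCGC or TTTGCCGC, the CHR as TTTGAA or TTCGAA, and the CCAAT box as CCAAT. The table held 23 promoters of 22 of the 25 S-phase genes and 16 promoters of 16 of the 20 mitotic genes. E2F letters stood in 11 of the 23 S-phase promoters (47.8%), in 1 of the 16 mitotic promoters (6.25%) and in 2.27% of all 32851 promoters. CHR letters stood in 3 S-phase promoters (13.0%), in 12 mitotic promoters (75%) and in 19.2% of all promoters. CCAAT stood in 69.6%, 87.5% and 37.4%. The 2 gene lists thus differed in the letters they carried as well as in function, which is a description of these windows and says nothing about binding.

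The 250 upstream bases of 4 genes are shown because results turn on them. Pola1 and Mybl2 had the largest called S-phase change after knockdown in ES cells and between EB9 and ES cells. Mad2l1 had the largest called mitotic change between EB9 and ES cells in control cells, and Ccnb2 the second largest after knockdown in ES cells, behind Cdc25c, whose promoter is not shown. Capitals mark matches to the letters above.
Pola1: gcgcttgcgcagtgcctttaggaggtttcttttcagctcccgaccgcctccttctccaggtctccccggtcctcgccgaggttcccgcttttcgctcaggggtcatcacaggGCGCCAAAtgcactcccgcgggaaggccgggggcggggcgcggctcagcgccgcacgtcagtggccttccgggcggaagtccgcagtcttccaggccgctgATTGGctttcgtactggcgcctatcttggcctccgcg
Ccnb2: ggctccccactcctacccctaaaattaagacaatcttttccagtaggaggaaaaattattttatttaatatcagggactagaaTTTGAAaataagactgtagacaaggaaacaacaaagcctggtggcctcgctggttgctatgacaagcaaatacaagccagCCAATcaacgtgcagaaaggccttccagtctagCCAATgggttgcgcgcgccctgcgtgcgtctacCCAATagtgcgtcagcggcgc
Mybl2: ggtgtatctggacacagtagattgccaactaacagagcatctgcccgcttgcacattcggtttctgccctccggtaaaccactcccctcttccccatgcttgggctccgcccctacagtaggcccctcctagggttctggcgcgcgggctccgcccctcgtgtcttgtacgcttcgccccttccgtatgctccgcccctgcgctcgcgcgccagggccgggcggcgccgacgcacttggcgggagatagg
Mad2l1: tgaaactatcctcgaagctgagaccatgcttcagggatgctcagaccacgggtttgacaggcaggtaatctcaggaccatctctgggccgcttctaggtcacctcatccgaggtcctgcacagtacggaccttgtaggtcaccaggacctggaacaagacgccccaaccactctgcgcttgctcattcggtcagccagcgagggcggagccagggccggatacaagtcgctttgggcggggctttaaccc
The Pola1 window is chrX:93632156-93632405 on the minus strand, with E2F letters 138 bases and CCAAT letters 37 bases before the start. The Ccnb2 window is chr9:70421555-70421804 on the minus strand, with CHR letters 167 bases and CCAAT letters 87, 54 and 21 bases before the start, and a further CHR match 4 bases after it. The Mybl2 window is chr2:163054385-163054634 and the Mad2l1 window chr6:66534971-66535220, both on the plus strand. Neither holds any of the letters searched. Only these exact letters were searched, so a site written with other letters would be missed.

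Levels below are log2 of the processed signal relative to the 75th percentile of the same array, so 0 is the level of that percentile, and they are compared between arrays for a probe and not between genes. A change is the difference of 2 group means on that scale, with the standard error (SE) of limma's moderated test. A gene was called at an adjusted p under 0.05 (Benjamini-Hochberg over all 21217 genes), and "higher", "lower", "rose" and "fell" refer to called genes. The 5 comparisons share arrays, so their counts are not independent. In a bulk sample fewer cells of a type and less RNA per cell cannot be told apart. The arrays lay on 4 slides, and each group kept 1 position on every slide, so group and position cannot be told apart. Genes called only with the slide as a block in the fit are named in each comparison as such, and they are not in the counts.

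The 75th percentile of the signal ranged from 1483 to 2531 and 62.5% to 75.4% of the features of an array were well above background. The targeted gene was read by 2 Cbx7 probes. The probe at chr15:79746240-79746299 (build mm9) differed by -1.91 (SE 1.23, adjusted p = 0.256 by limma) in knockdown ES cells and by -1.41 (SE 0.17, adjusted p = 1e-04) with the slide as a block, and it was not well above background on 2 of 4 knockdown ES cell arrays. The other probe differed by -0.13 (SE 0.23, adjusted p = 0.733), and in EB9 the probes differed by -0.27 and -0.16 (adjusted p = 0.920 and 0.708, with the slide block 0.221 and 0.360), so Cbx7 RNA does not check the label of the knockdown EB9 samples. All 10 pluripotency markers fell from ES cells to EB9 in control and in knockdown cells. Their summed level was 381 to 393 on control ES arrays, 356 to 420 on knockdown ES arrays, 23.3 to 31.4 on control EB9 arrays and 24.5 to 31.5 on knockdown EB9 arrays. All 8 endoderm markers rose in EB9, and 5 of 6 fibroblast markers rose, with a summed level of 2.91 to 3.65 on ES arrays and 76.0 to 125 on EB9 arrays. Col3a1, Dcn and Lum were not well above background on any ES cell array. Not every lineage list rose. In EB9 3 of 5 neuroectoderm markers tested fell and 1 rose in control cells, and 4 fell and 1 rose in knockdown cells. Of the 5 cardiac markers 3 rose and 2 fell in both. Their sums were 8.16 to 9.02 on control and 8.58 to 10.4 on knockdown ES arrays. In EB9 they were 2.99 to 5.82 on control and 3.38 to 4.77 on knockdown arrays. The 7 mesoderm markers tested summed to 1.68 to 2.64 on ES arrays, 13.2 to 14.9 on control EB9 arrays and 11.8 to 13.1 on knockdown EB9 arrays. These sums are set mostly by the brighter markers. By gene, 4 of the 7 were lower with the knockdown in EB9 and 0 higher: T (-2.79), Mesp1 (-1.67), Eomes (-0.89) and Hand1 (-0.42). From ES cells to EB9, 4 rose and 0 fell in control cells, and 4 rose and 2 fell (T and Mesp1) in knockdown cells. Of the 8 endoderm markers 2 were lower and 0 higher with the knockdown in EB9. Of the 6 trophoblast markers 4 were higher and 1 lower in knockdown ES cells, with sums of 15.4 to 16.7 on control and 19.5 to 21.4 on knockdown arrays. Of the 5 neuroectoderm markers tested 3 were higher and 1 lower there (Neurod1 1.62, Pax6 1.20), with sums of 2.69 to 3.21 and 2.46 to 2.61, and 3 of 7 mesoderm and 3 of 8 endoderm markers were lower and 1 of each higher. The part of these other cell types in the results below was not tested.

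**Figure D1:**
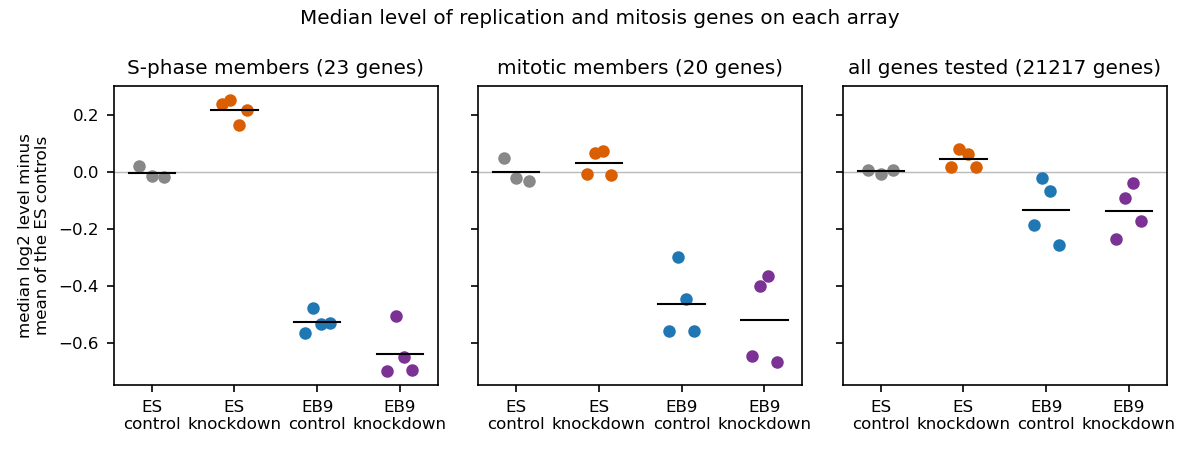
Median over the 23 S-phase genes, the 20 mitotic genes and all 21217 genes of the log2 level on each array minus that gene's mean in the ES controls. Each point is an array and each line a group mean. The S-phase median of the 4 knockdown ES arrays lay between 0.16 and 0.25, above the 3 controls at -0.02 to 0.02, while both EB9 groups lay at -0.48 or below.

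In ES cells, 13 S-phase genes were higher with the knockdown and none was lower, while the mitotic genes called went both ways. These 13 were of 23 tested, with a median change of 0.26, against 0.04 for all genes tested, and the other 10 were not called. Of the 20 mitotic genes 5 rose (25%) and 3 fell (15%), with a median of 0.01. Both shares were near those of all genes tested, 21.9% and 16.5%. Over both lists 18 of 43 rose (41.9%) and 3 fell (6.98%), beside 21.9% and 16.5% of all genes tested. Each of these changes was small, none of the called ones exceeding 1.56-fold.

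Among the S-phase genes the largest rise was that of Pola1, the catalytic subunit of DNA polymerase alpha (probe at chrX:90550189-90550248, mm9). Its level was 1.41, 1.64 and 1.52 in the ES controls and 2.03, 2.31, 2.21 and 2.10 in the knockdown arrays. The groups did not overlap, and the change was 0.64 (SE 0.10, 1.56-fold, adjusted p = 0.000362 by limma), with 0.62 to 0.69 within the slides. Mcm3, a subunit of the replicative helicase (chr1:20793119-20793178), stood at 4.71, 4.79 and 4.78 in the controls and at 5.12, 5.32, 5.13 and 5.17 with the knockdown. Every knockdown array was above every control, a change of 0.43 (SE 0.08, 1.34-fold, adjusted p = 0.00121 by limma), and the second Mcm3 probe gave 0.35. Cdc25a, the phosphatase that activates Cdk2 at S-phase entry (chr9:109796331-109796390), stood at 2.54, 2.54 and 2.51 against 2.96, 2.87, 2.86 and 2.84. These groups too lay apart, at 0.35 (SE 0.05, 1.28-fold, adjusted p = 0.000123 by limma).

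Of the 10 helicase and licensing genes tested, 6 rose (60%) and 0 fell, beside 21.9% and 16.5% of all genes tested. The 6 were Mcm3, Mcm6 (0.31), the loader Cdc6 (0.30), Mcm2 (0.27), Mcm5 (0.26) and Mcm7 (0.21). The calls of Mcm5, Mcm6 and Mcm7 were kept under 0 of the 4 other scalings described below. Mcm4, a subunit of the same ring, differed by 0.08 (adjusted p = 0.328), Mcm10 by 0.14, Cdt1 by 0.12 and its inhibitor Gmnn by 0.07. The second, dimmer Cdc6 probe differed by -0.03 (SE 0.17), so the Cdc6 call rests on 1 of its 2 probes. At the fork, 4 of 5 genes rose (80%), namely Pola1, the clamp loader subunit Rfc4 (0.34), the clamp Pcna (0.28) and the primase Prim1 (0.25). Rfc3 differed by 0.18 (adjusted p = 0.117). The Pcna call was kept under 1 and the Prim1 call under 0 of the 4 other scalings. None of the 3 nucleotide supply genes was called, with Rrm2 at 0.12 and Rrm1 at 0.03 (the subunits of ribonucleotide reductase) and the thymidylate synthase Tyms at -0.05. Of the regulators of S-phase entry, Cdc25a, Cdk2 (0.27) and the cyclin E gene Ccne1 (0.27) rose, and the transcription factor E2f1 differed by 0.10 (adjusted p = 0.324). Orc1l, outside the counts, differed by 0.18 (adjusted p = 0.127).

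Mybl2, a transcription factor of the S phase that also serves mitotic genes, gave different answers by probe. The brighter probe (chr2:162909345-162909404) read 5.88, 5.67 and 5.62 in the ES controls and 6.15, 5.93, 5.81 and 6.07 with the knockdown, an uncalled 0.27 (SE 0.10, adjusted p = 0.0589 over genes by limma). The second probe, at another place in the gene (chr2:162910364-162910423), read 5.21, 5.09 and 5.12 against 4.82, 4.75, 4.67 and 4.78. Its groups lay apart in the opposite direction, at -0.39 (SE 0.06, adjusted p = 0.000412 over all probes by limma).

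In mitosis, the cyclins and the phosphatase rose under the main scaling while most of the spindle genes were not called. Cdc25c, the phosphatase that activates Cdk1, stood at 0.52, 0.34 and 0.24 in the controls and at 0.86, 0.79, 0.71 and 0.85 with the knockdown. The groups lay apart, at 0.43 (SE 0.08, 1.35-fold, adjusted p = 0.000821 by limma). The cyclin Ccnb2 (chr9:70255671-70255730) stood at 4.89, 4.79 and 4.72 against 5.29, 5.18, 5.08 and 5.19, again apart, at 0.39 (SE 0.07, 1.31-fold, adjusted p = 0.00119 by limma). Ccna2 rose by 0.26, Top2a, the topoisomerase that untangles sister chromatids, by 0.19, and Ccnb1 by 0.19, but Ccnb1 was -0.02 and -0.01 in the 2 alternatives that used normexp correction or the authors' values. The 2 dimmer Ccnb1 probes gave larger rises of 0.61 and 0.54. Of the 4 other scalings, Cdc25c kept its call under 4, Ccnb2 under 2, and Ccna2, Ccnb1 and Top2a under 0.

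The 3 mitotic genes that fell were Foxm1, Mki67 and Birc5. Foxm1, the transcription factor of the G2 and M genes (chr6:128324783-128324842), read 0.50, 0.25 and 0.33 in the controls and 0.26, -0.10, 0.01 and 0.18 with the knockdown. The groups overlapped, since the highest knockdown array was above the lowest control, but within each of 3 slides the knockdown array was lower, by 0.25 to 0.35. The change was -0.27 (SE 0.09, adjusted p = 0.0327 by limma). Mki67, the chromosome surface protein used as a proliferation marker, fell by 0.18, and the chromosomal passenger protein Birc5 by 0.15. The second, dimmer Foxm1 probe (-0.16), the second Mki67 probe (-0.13) and the 2 other Birc5 probes (-0.10 and -0.05) were not called. Each of the 3 falls lost its call without single arrays: Foxm1 without ES knockdown 2 or 3 or ES control 2 or 4 (adjusted p 0.0634 to 0.144), and Mki67 and Birc5 without 6 and 10 of the arrays (0.0518 to 0.171 and 0.0520 to 0.130).

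The remaining 12 mitotic genes were not called. Bub1 differed by 0.22 (adjusted p = 0.0827), Cdc20, the activator of the anaphase-promoting complex, by 0.19 (adjusted p = 0.0546), and Cdk1, the kinase that cyclin B activates, by -0.29 (SE 0.21), while its dimmest probe was called at -0.52. Plk1, Aurka, Cenpe, Bub1b, Cenpa, Kif11 and Ttk lay between -0.09 and 0.12. Mad2l1 differed by probe, with the brightest at -0.11 (not called) and the other 2 at 0.48 and 0.43 (adjusted p = 0.00117 and 0.00235 by limma over all probes). Aurkb was read with an SE of 1.51, since its level moved strongly with the slide. It was -5.49, -5.83, -7.01 and -6.04 on slide 1, -4.28, -4.78 and -5.06 on slide 4, and between -2.25 and -1.62 on slides 2 and 3. One of the 3 Cdk1 probes did the same, with an SE of 1.25. With the slide as a block the Aurkb difference in ES cells was -0.20 (adjusted p = 0.432 by limma).

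How many genes passed depended on the scaling, while the S-phase median did not change sign. Normexp correction with quantile normalisation gave 7 higher and 6 lower, quantile normalisation alone 8 and 4, centring on the median 10 and 0, and the authors' deposited values 7 and 6, beside 18 and 3 here. The share and median of all genes under these 4 scalings are not given here. Whether the listed genes still stood out from all genes under them cannot be read from these counts. The S-phase median stayed between 0.11 and 0.29 under these scalings and no S-phase gene was called lower under any of them, while the mitotic median was between -0.09 and 0.04. The genes that stayed called under all 4 were Pola1, Cdc25a, Cdc6, Rfc4 and the mitotic gene Cdc25c. Mcm5, Mcm6, Mcm7, Prim1, Ccne1 and the mitotic genes Ccna2, Ccnb1 and Top2a kept their call under 0 of the 4. With the slide as a block, 22 rose and 4 fell, beside 27.3% and 20.2% of all genes tested, the added genes being Rfc3, Mybl2, Bub1 and Cdc20 (higher, adjusted p = 0.0389, 0.0180, 0.0117 and 0.0237) and Cdk1 (lower, -0.24, adjusted p = 0.0231), and the S-phase median within the slides was 0.23, 0.25 and 0.21. Without ES control 3 the S-phase genes called higher went from 13 to 8, and without ES control 4 the mitotic genes called higher went from 5 to 3. Mcm2 and Ccne1 lost their call without 5 and 6 of the 7 ES arrays in turn, Mcm7 and Cdk2 without ES control 3 or 4, Pcna without ES knockdown 2 or ES control 2 or 3, Ccnb1 without ES knockdown 2 or ES control 3 or 4, and Top2a without ES control 4, with adjusted p from 0.0542 to 0.102.

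**Figure D2:**
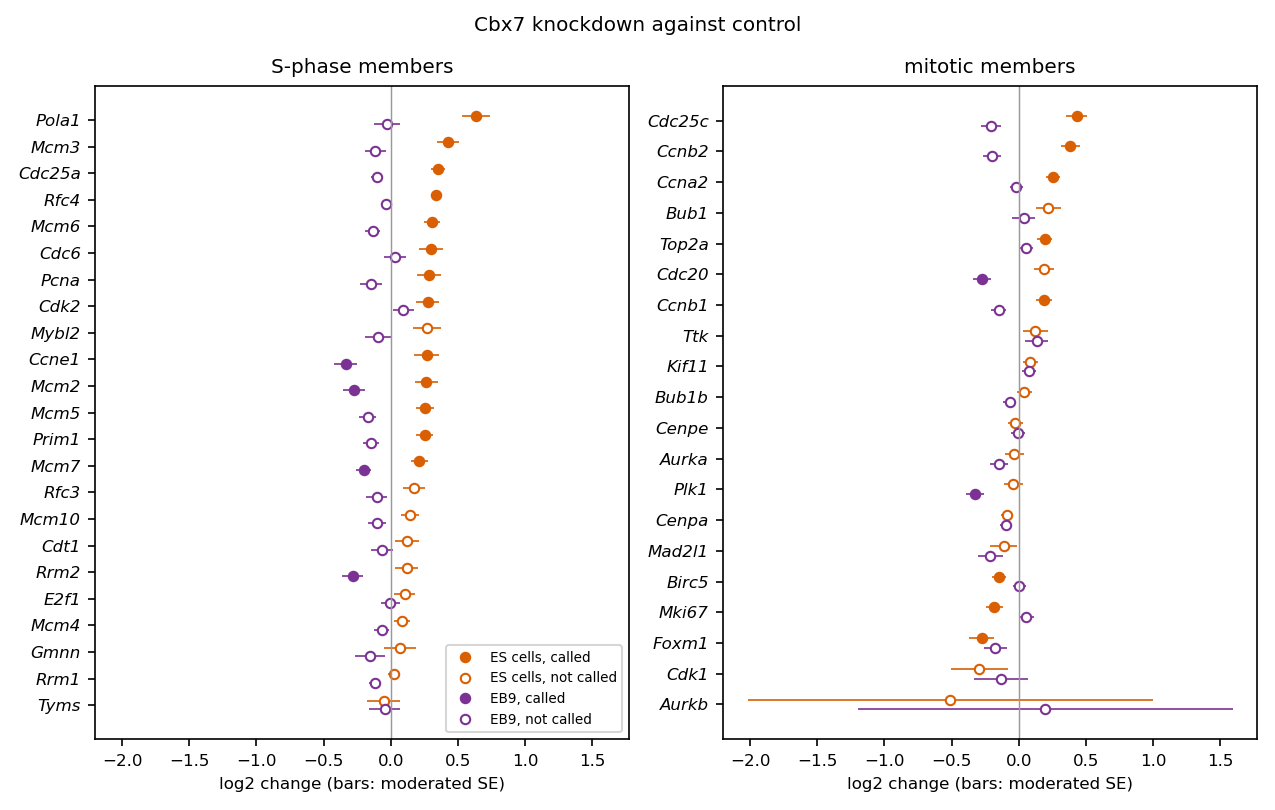
Change with the Cbx7 knockdown for each of the 43 genes, in ES cells and in EB9, as log2 change with its moderated SE. Filled points were called at an adjusted p under 0.05. In ES cells 13 S-phase genes are filled to the right of 0, and in EB9 the filled points, 4 S-phase and 2 mitotic genes, lie to the left.

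In EB9, fewer genes differed and those called were all lower with the knockdown. Of the 43 genes 0 rose and 6 fell (14.0%), beside 7.97% higher and 7.19% lower among all genes tested. The 6 were the helicase subunits Mcm2 and Mcm7, the ribonucleotide reductase subunit Rrm2, the cyclin Ccne1, the kinase Plk1 and Cdc20. At an unadjusted p under 0.05, limma gave 0 higher and 17 lower members (39.5%), beside 14.8% and 13.8% of all genes tested. The S-phase median was -0.11 and the mitotic median -0.08, against -0.01 for all genes tested.

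Ccne1, which drives cells into S phase (chr7:38882937-38882960), stood at 2.44, 2.71, 2.57 and 2.63 in the EB9 controls and at 2.23, 2.51, 2.10 and 2.17 with the knockdown. The groups overlapped through knockdown 2 and control 1, while on every slide the knockdown array was lower, by 0.20 to 0.46. The change was -0.33 (SE 0.08, adjusted p = 0.0192 by limma), or 1.26-fold lower, and the second probe gave -0.33. Rrm2 (chr12:25398824-25398883) stood at 4.06, 4.27, 4.17 and 4.32 against 3.89, 4.11, 3.79 and 3.90. These also overlapped through knockdown 2, with -0.28 (SE 0.08, adjusted p = 0.0304 by limma). Mcm2 (chr6:88833619-88833678) stood at 2.33, 2.71, 2.54 and 2.47 against 2.14, 2.42, 2.19 and 2.20, a change of -0.27 (SE 0.08, adjusted p = 0.0394 by limma). Knockdown 2 was the highest array of its group for each of these 3 genes and overlapped the controls.

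For Mcm7, which fell by 0.20, and for both mitotic genes the groups lay apart. Plk1, the kinase of spindle assembly and mitotic exit (chr7:129313220-129313279), stood at 3.79, 3.87, 3.84 and 3.80 in the EB9 controls and at 3.39, 3.72, 3.45 and 3.43 with the knockdown, -0.33 (SE 0.07, 1.25-fold lower, adjusted p = 0.00604 by limma). Cdc20 (chr4:118105534-118105593) stood at 4.84, 4.76, 4.74 and 4.77 against 4.53, 4.51, 4.42 and 4.57, -0.28 (SE 0.07, 1.21-fold lower, adjusted p = 0.0160 by limma). The uncalled genes lay between -0.21, for Mad2l1 and Cdc25c, and 0.20, for Aurkb, and only Cdc6, Cdk2, Birc5, Bub1, Top2a, Mki67, Kif11, Ttk and Aurkb had a value above 0.

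The EB9 count moved with the processing and with single arrays. With the slide as a block 13 fell and 0 rose, beside 13.2% and 13.5% of all genes tested, the added genes being Mcm5, Mcm6, Mad2l1, Cdc25c, Ccnb2, Foxm1 and Ccnb1. Centring on the median gave 2 lower, no filter on dim probes 3, and a fit of the EB9 groups alone 1, without the share of all genes to set beside them. Without EB9 knockdown 2 the count was 10, without EB9 knockdown 3 it was 1, without EB9 knockdown 4 or EB9 control 4 it was 2, and without EB9 knockdown 1 or EB9 control 2 or 3 it was 3. Plk1 kept its call under the 4 other scalings and without each array in turn. Cdc20 lost it without EB9 knockdown 3 (adjusted p = 0.0556 by limma), Ccne1 without EB9 knockdown 3 or 4 or EB9 control 4 (0.0554 to 0.0657), and Rrm2, Mcm2 and Mcm7 without 6, 10 and 8 of the 15 arrays (0.0502 to 0.109).

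Whether the knockdown effect differed between the stages was tested directly, as the change in EB9 minus the change in ES cells. Of the 43 genes 18 had a lower effect in EB9 (41.9%) and 1 a higher one (2.33%), beside 16.9% and 12.7% of all genes tested. Of the S-phase genes 12 of 23 differed, all with the lower effect in EB9, and of the mitotic genes 6 of 20 did so and Mki67 went the other way. The median difference was -0.37 for S-phase and -0.10 for mitotic genes, against -0.04 for all genes tested.

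Among the called genes Pola1 had the largest difference, -0.66 (SE 0.14, adjusted p = 0.00353 by limma). Its level, given above for ES cells, was 0.96, 1.38, 1.22 and 1.03 in the EB9 controls and 1.03, 1.23, 1.17 and 1.06 in the EB9 knockdown, so the EB9 groups overlapped and differed by -0.03. Ccne1 and Mcm2 differed by -0.60 and -0.54 and were called in both stages with opposite signs, higher with the knockdown in ES cells and lower in EB9. Mcm2 was 3.19, 3.27 and 3.23 in the ES controls and 3.46, 3.61, 3.43 and 3.49 in knockdown ES cells. Mcm7 had the same pattern, with -0.41. The opposite calls depended on the scaling. Of the 4 other scalings, the Ccne1 rise in ES cells was called under 0 and its fall in EB9 under 3. For Mcm7 these numbers were 0 and 1, and for Mcm2 3 and 3. Among mitotic genes Cdc25c differed by -0.64 (SE 0.11, adjusted p = 0.000734 by limma), Ccnb2 by -0.58 and Cdc20 by -0.47. Cdc25c was -0.22, -0.24, -0.40 and -0.33 in the EB9 controls and -0.39, -0.58, -0.61 and -0.45 with the knockdown. Ccnb2 was 4.33, 4.12, 4.07 and 4.14 against 4.00, 4.02, 3.86 and 3.99. Cdc20 was 4.54, 4.36 and 4.45 in the ES controls and 4.75, 4.57, 4.48 and 4.75 in knockdown ES cells, an uncalled difference of 0.19 beside its fall in EB9.

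By role, 5 of 10 licensing and helicase genes, 4 of 5 fork genes and 5 of 9 mitotic cyclins, kinases and phosphatase had the lower effect in EB9. So did 2 of 5 regulators of S-phase entry, 1 of 3 nucleotide supply genes and 1 of 5 checkpoint and anaphase genes. Of the 5 chromosome structure, centromere and motor genes 0 did. With 16.9% of all genes lower, 0 of 5, 1 of 5, 1 of 3 and 2 of 5 are not set apart from all genes. With the slide as a block the effect was lower for 23 genes (17 S-phase, 6 mitotic) and higher for 1, beside 23.5% and 17.5% of all genes tested. The genes added were Mcm10, Cdc6, Gmnn, Rfc3 and Mybl2, with adjusted p from 0.0175 to 0.0471. The scaling moved the count too, to 8 lower and 3 higher under normexp with quantile normalisation, 12 and 2 under quantile normalisation, 12 and 0 under centring on the median, and 9 and 2 with the authors' values. The share of all genes under these scalings is not given here. The genes called under each of these were Ccne1, Mcm2, Prim1, Cdc25c and Ccnb2. Plk1 and Mki67 lost the call without 12 and 13 of the 15 arrays (adjusted p 0.0547 to 0.0973 and 0.0534 to 0.123), and Rrm2 without ES control 3 (0.0542). In the fit over all probes Mki67 missed the threshold (0.0523), and the second Mybl2 probe differed by 0.38 (adjusted p = 0.00525) where the brighter one gave -0.36. The dimmest Cdk1 probe was called there at 0.41 (adjusted p = 0.0424 by limma), where the brightest gave an uncalled 0.16.

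**Figure D3:**
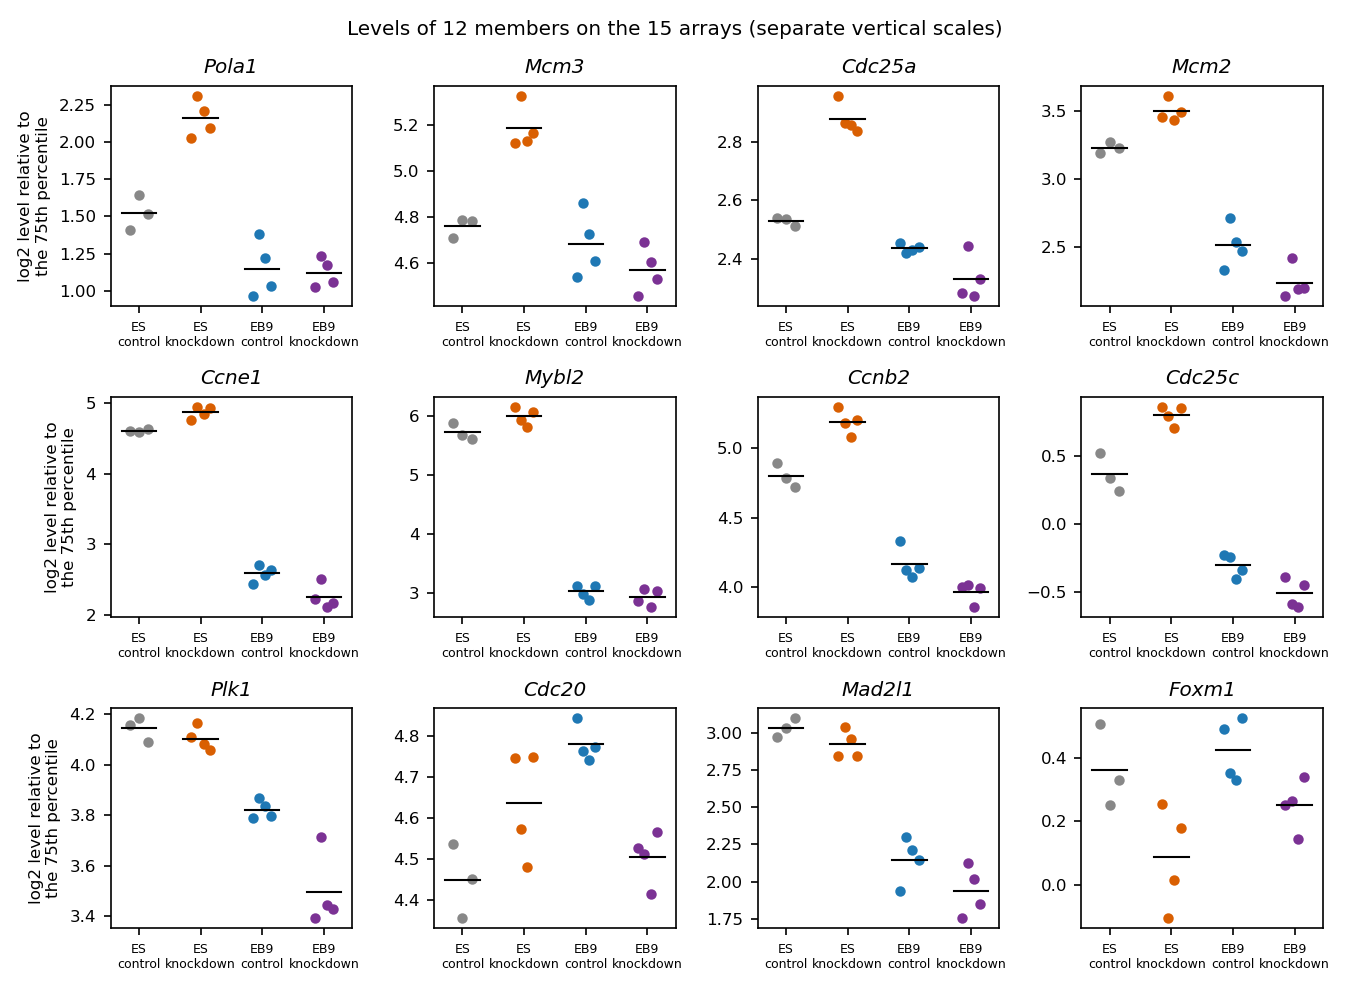
Level of 12 of the genes on each of the 15 arrays, as log2 relative to the array's 75th percentile, with a separate vertical scale for each gene. Points are arrays and lines group means. Pola1 stands between 2.03 and 2.31 on the knockdown ES arrays and between 0.96 and 1.64 on every other array.

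Between ES cells and EB9 most of the genes were lower in EB9, in control cells as with the knockdown. In control cells 28 of 43 were lower (65.1%) and 6 higher (14.0%), beside 41.5% and 33.2% of all genes tested. In knockdown cells 34 were lower (79.1%) and 4 higher (9.30%), beside 44.1% and 33.8%. The control medians were -0.53 for S-phase and -0.49 for mitotic genes, and the knockdown medians -0.93 and -0.57, against -0.14 and -0.18 for all genes tested. Centring on the median moved the control median of all genes to 0.02 and the S-phase and mitotic medians to -0.37 and -0.34, so relative to all genes the lists lay 0.38 and 0.35 lower under the main scaling.

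**Figure D4:**
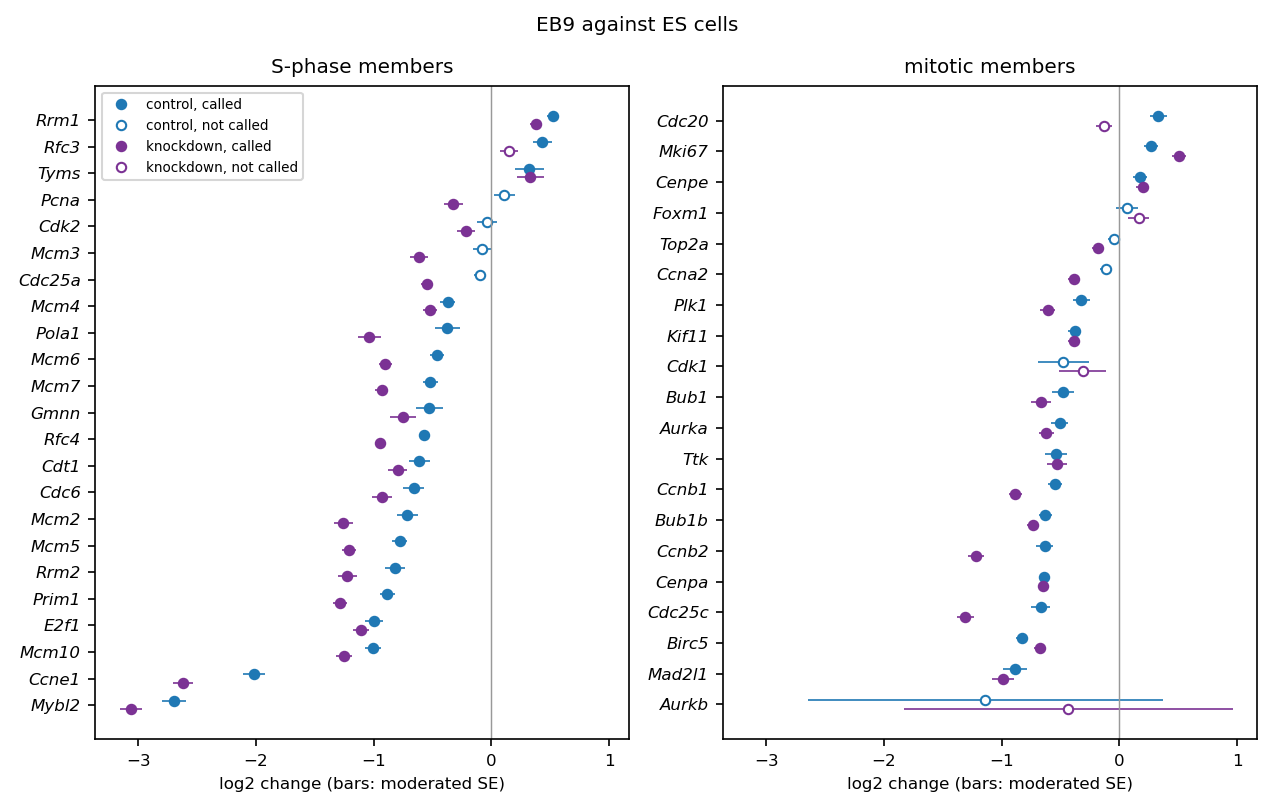
Change from ES cells to EB9 for each of the 43 genes, in control and in knockdown cells, as log2 change with its moderated SE. Filled points were called at an adjusted p under 0.05. Mybl2 and Ccne1 lie farthest left, at -2.70 and -2.02 in control cells and at -3.06 and -2.62 with the knockdown.

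The regulators of S-phase entry held the extremes. Mybl2 stood at 5.88, 5.67 and 5.62 in control ES cells and at 3.12, 2.99, 2.89 and 3.12 in control EB9. The groups were far apart, at -2.70 (SE 0.10, 6.49-fold lower, adjusted p = 3.37e-11 by limma), and in knockdown cells the EB9 levels of 2.86, 3.06, 2.76 and 3.04 gave -3.06 (8.34-fold lower). The second Mybl2 probe fell further (-3.82 and -3.44). Ccne1 stood at 4.60, 4.58 and 4.62 in control ES cells and at 4.76, 4.94, 4.85 and 4.93 in knockdown ES cells, against the EB9 levels given above. Its changes were -2.02 (SE 0.09, 4.05-fold lower, adjusted p = 1.73e-10 by limma) and -2.62 (6.14-fold lower). E2f1 fell by 1.00 in control cells and 1.11 in knockdown cells. Cdk2, the catalytic partner of cyclin E, differed by -0.04 in control cells (adjusted p = 0.702), and fell by 0.22 in knockdown cells, a call lost without EB9 knockdown 2 (0.0615).

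All 10 licensing and helicase genes were lower in knockdown EB9 and 9 of 10 in control EB9, the exception being Mcm3 (-0.08, adjusted p = 0.417). Mcm10, which activates the loaded helicase (chr2:4911785-4911844), stood at 4.16, 4.04 and 4.03 in control ES cells and at 3.13, 3.09, 3.00 and 3.06 in control EB9. The groups lay apart, at -1.01 (SE 0.07, 2.01-fold lower, adjusted p = 1.47e-08 by limma). The remaining changes in control cells ran from -0.37 for Mcm4 to -0.78 for Mcm5, with Gmnn at -0.53. Orc1l, outside the counts, differed by -1.60 and -1.82 in control and knockdown cells.

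Fork and nucleotide genes did not all fall. Prim1 (chr10:127466952-127467011) stood at 4.01, 3.94, 3.90 and 3.98 in knockdown ES cells and at 2.57, 2.81, 2.65 and 2.66 in knockdown EB9, -1.28 (SE 0.06, 2.43-fold lower, adjusted p = 1.48e-10 by limma). Rfc4 fell by 0.57 in control cells, while Rfc3, another subunit of the same clamp loader, rose by 0.43 (adjusted p = 0.000326). Pcna differed by 0.11 in control cells (adjusted p = 0.288) and fell by 0.32 in knockdown cells, a call kept under 1 of the 4 other scalings (centring on the median). With the slide as a block Rfc3 was called higher in knockdown cells too (0.15, adjusted p = 0.0327 by limma). The 2 subunits of ribonucleotide reductase moved oppositely in control cells, Rrm2 by -0.82 and Rrm1 by 0.52. Rrm1, the large subunit, stood at 2.72, 2.68 and 2.67 in control ES cells and at 3.18, 3.22, 3.25 and 3.19 in control EB9, and it rose in knockdown cells too (0.38). Tyms rose by 0.32 and 0.33, calls that were lost without ES control 2 or EB9 control 3 (adjusted p 0.0746 to 0.136) and without ES knockdown 1 (0.0534).

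Of the mitotic genes 12 fell and 3 rose in control cells, and 14 fell and 2 rose in knockdown cells. Mad2l1, the spindle checkpoint protein (chr6:66490836-66490895), stood at 2.97, 3.03 and 3.10 in control ES cells and at 1.94, 2.30, 2.21 and 2.14 in control EB9, -0.89 (SE 0.10, 1.85-fold lower, adjusted p = 2.33e-06 by limma), and in knockdown cells 2.85, 3.04, 2.95 and 2.84 against 1.75, 2.12, 2.02 and 1.85, 1.98-fold lower (adjusted p = 3.15e-07). These groups lay apart in both backgrounds. Its dimmer probes gave smaller falls of 0.31 and 0.41 in control cells. Birc5 (chr11:117716978-117717037) stood at 5.38, 5.33 and 5.38 against 4.58, 4.52, 4.46 and 4.60, again apart, at -0.82 (SE 0.05, 1.77-fold lower, adjusted p = 6.97e-09 by limma). Cdc25c fell by 0.67 in control cells and by 1.31 in knockdown cells (2.48-fold lower), and Ccnb2 by 0.63 and 1.22 (2.32-fold lower). For both genes the ES knockdown level was the highest of the 4 groups and the EB9 knockdown level the lowest.

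Several mitotic genes stood apart from the list. Mki67 stood at 3.72, 3.53 and 3.46 in control ES cells and at 3.86, 3.77, 3.84 and 3.90 in control EB9, and it rose by 0.27 and, in knockdown cells, by 0.51. The kinetochore motor Cenpe rose by 0.18 and 0.20, the first lost without ES control 3 (adjusted p = 0.0528). Cdc20 rose by 0.33 in control cells and differed by -0.13 in knockdown cells, called lower there with the slide as a block (adjusted p = 0.0254 by limma). Foxm1 was not called in either (0.06 and 0.16), and with the slide block it was called higher in knockdown cells (adjusted p = 0.0148). Top2a differed by -0.05 in control cells and was called lower in knockdown cells (-0.18), with values of 0.02 to 0.05 under normexp, quantile normalisation and the authors' values. Cdk1 differed by -0.47 (SE 0.21) and -0.31, neither called without the slide as a block (adjusted p = 0.0611 and 0.169) and both called lower with it (0.00038 and 0.00134). Its dimmest probe was called lower without the block, at -0.90 and -0.49 (adjusted p = 2.31e-06 and 0.000293 by limma over all probes). The remaining Cdk1 probe, which moved with the slide, was not called (-0.55 and -0.01). Aurkb read lower in EB9 on every slide, with differences of -1.52, -0.60 and -0.59 in control cells and of -0.20, -0.57, -0.17 and -0.78 in knockdown cells, and was called lower with the slide block (-0.83, adjusted p = 0.003, and -0.43, adjusted p = 0.0459). Ccna2 was added by the block in control cells (-0.12, adjusted p = 0.0404). With the block 6 genes were higher and 31 lower in control cells and 6 and 37 in knockdown cells, beside 36.1% and 45.1%, and 36.3% and 48.7%, of all genes tested.

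The other genes of the 2 pathways, taken from lists of 47 replication and 63 mitosis genes of which all were tested, are given by their counts. In ES cells 21 of the 47 replication genes rose (44.7%) and 2 fell (4.26%) with the knockdown (median 0.20), and 32 of the 63 mitosis genes rose (50.8%) and 8 fell (12.7%), with a median of 0.21, beside 21.9% and 16.5% of all genes tested, so the wider mitosis list, unlike the 20 mitotic genes above, had a median above that of all genes tested (0.04). The largest changes were those of the spindle gene Dlgap5 (0.72), the kinetochore gene Ndc80 (0.71), the cytokinesis kinase Cit (-0.64) and Lin9 (-0.61), a subunit of the complex through which Mybl2 and Foxm1 act. In EB9 0 replication genes rose and 6 fell (12.8%), and 1 mitosis gene rose (1.59%) and 3 fell (4.76%), beside 7.97% and 7.19% of all genes tested, so the mitosis share was below that of all genes in both directions, with Zwilch at 0.26, Pole2 at -0.49 and Chaf1b at -0.30. From ES cells to EB9, 36 replication (76.6%) and 44 mitosis genes (69.8%) fell and 4 and 9 rose in control cells, beside 41.5% lower and 33.2% higher of all genes. In knockdown cells 37 (78.7%) and 49 (77.8%) fell and 3 and 5 rose, beside 44.1% and 33.8%. E2f3, another member of the E2F family, rose by 2.61 and 1.82, and Fzr1, an activator of the anaphase-promoting complex, by 0.52 in knockdown cells, against the falls of Orc2 and Rfc5 (-1.64 and -1.66 in control cells) and Pole2 (-2.01 in knockdown cells). The knockdown effect was lower in EB9 than in ES cells for 21 replication (44.7%) and 22 mitosis genes (34.9%) and higher for 0 and 3, beside 16.9% and 12.7% of all genes, with Lin9 at 0.72, Sgo1 at 0.48, E2f3 at -0.79 and Rnaseh2a at -0.73.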

How the data were processed

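RNA from 15 mouse samples was hybridised to 1-colour arrays. Per the file headers, the deposited scanner files hold intensities from Feature Extraction 10.7.3.1, and their processed signal is already background-subtracted, on build mm9. The authors' deposited table of log2 values has a median of 7.53 in every column, and no source used here states how its background was corrected. 1 array per sample carries each value, so precision rests on the number of arrays.

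The analysis used R 4.3.3, limma 3.58.1 and data.table (version 1.17.8). Processed intensities were divided by the array's 75th percentile and converted to log2, flagged spots were dropped and repeat spots averaged. A probe was kept if well above background on at least 3 arrays of a group (27248 of 39429), and the brightest probe stood for a gene. Group means over all 15 arrays were fitted in limma (11 residual degrees of freedom), with Benjamini-Hochberg adjustment over 21217 genes and a threshold of 0.05. Missing values, 91 in 79 genes, touched none of the genes described. The fit was tested on simulated data. Nothing in the labels says how the biological replicates were cultured apart.

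The genes and all gene lists were chosen with earlier results of these data known. Any listed gene could be named; values on every array are given for the 3 called genes with the largest change of each list in each comparison, and other pathway genes are named for the 2 largest called changes in each direction, of which 1 gene is not reported here. Rrm1, Mki67, Aurkb and the second Mybl2 probe were added after their values were seen. Alternatives covered the background correction, scaling, dim-probe filter, probe summary, slide or replicate number as a block, the samples fitted, and leaving out each array. Sequences are from RefSeq. Exon and UTR positions of the probes are not given here.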

Additional observations from a re-analysis of the deposited data

Results flagged for a closer look

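Among 129 combinations of a tested gene and a group of 4 arrays, 6 held an array far from the other 3, where chance gives about 1 in 20. Of these, 3 were EB9 knockdown 2, which read 3.52 for Mcm5 (others 3.24 to 3.29), 3.20 for Rrm1 (others 3.04 to 3.06) and 3.72 for Plk1 (others 3.39 to 3.45). EB9 knockdown 3 read 3.86 for Ccnb2 (others 3.99 to 4.02), ES knockdown 3 read 4.52 for Rfc4 (others 4.59 to 4.60), and EB9 control 1 read -0.11 for Cdk2 (others -0.26 to -0.24).

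The knockdown effect differed between EB9 and ES cells, by the test of the difference itself in limma, for 19 of the 43 genes. It was lower in EB9 for 18 (41.9%) and higher for 1 (2.33%), beside 16.9% and 12.7% of all genes tested. The effect in EB9 minus that in ES cells was -0.66 for Pola1, -0.64 for Cdc25c, -0.60 for Ccne1, -0.58 for Ccnb2, -0.54 for Mcm2 and Mcm3, -0.47 for Cdc20, -0.46 for Cdc25a, -0.44 for Mcm6, -0.43 for Mcm5 and Pcna, and -0.41 for Mcm7. It was -0.40 for Rrm2 and Prim1, -0.37 for Rfc4, -0.33 for Ccnb1, -0.29 for Plk1, -0.27 for Ccna2 and 0.24 for Mki67. Rrm2, Ccnb1, Plk1 and Ccna2 kept this call under 0 of the 4 other scalings.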

How the results depend on the processing

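Of 118 called values (a gene in a comparison), all 118 kept direction and call with the slide as a block and with probes well above background on all arrays, 116 with the replicate number as a block, 113 with the mean of a gene's probes, 107 with no filter, 99 under quantile normalisation, 92 with the authors' values, 91 under normexp and 90 centred on the median. When only the groups of a comparison were fitted, the difference of effects could not be fitted. Of the called values of the other comparisons, 91 kept direction and call there and 8 did not. Of the 118, 47 lost the call under at least 1 alternative, and 41 of 97 values that did not pass changed sign under at least 1. Called values reversed for Ccnb1 in ES cells (-0.0169 under normexp, -0.0107 with the authors' values) and for Top2a between EB9 and ES cells with the knockdown (0.0456, 0.0226 and 0.0472 under normexp, quantile and the authors' values). The cause was not tested. Except with the slide as a block, the share of all genes called under each setting below is not given here.

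In ES cells the genes called higher were 7, 8, 10 and 7 under normexp, quantile, median centring and the authors' values (S-phase 6, 6, 7 and 6, mitotic 1, 2, 3 and 1). The genes called lower, all mitotic, were 6 under normexp and with the authors' values, 0 under median centring, no filter or the mean of probes, and 1 with only the 2 groups fitted. In EB9 the genes called lower were 2 under median centring, 3 with no filter, 13 with the slide block, 9 with the replicate block and 1 with only the 2 groups fitted. Of these the S-phase genes were 2 under normexp and with the authors' values, 1 under median centring or no filter and 0 with only the 2 groups, and the mitotic genes 1 under median centring, 7 with the slide block, 5 with the replicate block and 1 with only the 2 groups. For the difference of effects, 3, 2, 0 and 2 genes were higher under normexp, quantile, median centring and the authors' values, and 0 with no filter, the mean of probes or the replicate block. The genes lower there were 8 under normexp and 9 with the authors' values (S-phase 5 and 6), with 3 mitotic genes under each and under quantile, and 2 under median centring.

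Leaving out each array in turn gave 12 to 19 genes higher and 0 to 3 lower in ES cells (S-phase 8 to 13 higher, mitotic 3 to 6 higher and 0 to 3 lower), 1 to 10 lower in EB9 (S-phase 0 to 8, mitotic 1 to 3), 5 to 6 higher and 28 to 30 lower for differentiation in control cells (S-phase 2 to 3 and 16, mitotic 2 to 3 and 12 to 14), 4 to 5 and 33 to 35 in knockdown cells (S-phase 1 to 3 and 19 to 20, mitotic 2 to 3 and 14 to 15), and 0 to 1 higher and 16 to 22 lower for the difference of effects (S-phase 11 to 16 lower, mitotic 0 to 1 higher and 5 to 6 lower). S-phase genes higher in knockdown EB9 went from 2 to 1 without ES knockdown 1.

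Replicate numbers were not used to pair the samples in the main fit. They match the slide except in the ES controls, where arrays 2 to 4 lay on slides 1 to 3. The deviations of 21 same-numbered pairs correlated with a median of 0.34 (-0.59 to 0.55, 15 over 0.1), those of 21 same-slide pairs with a median of 0.43 (0.21 to 0.63, 21 over 0.1). Same-numbered pairs without an ES control are also same-slide pairs, so the 2 sets overlap and do not separate number from slide. For 54 pairs that shared neither the median was -0.31 (-0.56 to 0.49, 18 over 0.1). With the replicate block the calls were 21 higher and 2 lower in ES cells, 0 and 9 in EB9, 6 and 28 and 5 and 35 for differentiation in control and knockdown cells, and 0 and 20 for the difference of effects. Signal over background limits Ccne2, and the shift between slides Aurkb.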
